A study of Mus musculus with 12 samples.

Results

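The 10 genes described here encode carriers that move amino acids across the cell membrane: Slc7a11, Slc7a5, Slc3a2, Slc7a1, Slc7a3, Slc1a4, Slc1a5, Slc6a9, Slc38a2 and Slc38a1. They were taken by gene name from a table of 34513 mouse genes, and all 10 were among the 18338 genes that could be tested. RNA came from cultures of 3 mouse pigment cell lines, the non-tumorigenic melanocyte line Melan-A and the melanoma lines B16F0 and B16F10, of which B16F10 was derived from the same tumor as B16F0 and is known for lung metastasis. Each line was sequenced without treatment (control) and with SX-682, a small molecule antagonist of the chemokine receptors CXCR1 and CXCR2, giving 6 groups of 2 libraries. The labels call the controls untreated, so whether they received the solvent of SX-682 is not given, and the dose and time of SX-682 in these cultures are not given in the sources used here. Each line stands for itself alone, and nothing in the labels says that the 2 libraries of a group came from separate cultures, so p-values measure the spread between these libraries, which may be technical.

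Amino acids enter cells through families of membrane carriers with overlapping substrates. Slc7a11 (xCT) exchanges intracellular glutamate for extracellular cystine, the source of cysteine for glutathione, and Slc7a5 (LAT1) exchanges glutamine for leucine and other large neutral amino acids. Both are light chains that reach the plasma membrane bound to a shared heavy chain, the CD98 protein encoded by Slc3a2. Slc7a1 and Slc7a3 carry arginine and lysine, Slc1a4 and Slc1a5 exchange small neutral amino acids and glutamine, Slc6a9 takes up glycine, and Slc38a1 and Slc38a2 take up glutamine and alanine together with sodium. Many of these genes are known targets of ATF4, a transcription factor that is made when cells are short of amino acids or under other stress.

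Library totals ran from 48876982 to 85322092 counts, and the biological coefficient of variation between replicates was 2.78%. Levels are given in CPM, counts brought to a common library total after TMM scaling, on which the floor of 3 counts in a library was between 0.0330 and 0.0623 CPM. That floor, like the intervals of a count, covers counting error only. All 7 melanocyte markers listed (Tyr, Tyrp1, Dct, Pmel, Mlana, Mitf and Sox10) were above the floor in every group. In Melan-A controls Tyr and Pmel, which encode tyrosinase and a melanosome matrix protein, were at 0.825 and 8.11 CPM, against 515 and 4511 CPM in B16F0 controls. The summed melanocyte marker level was 1344 to 1374 CPM in Melan-A controls and 1346 to 1355 CPM with SX-682. Within this sum, markers moved in opposite directions. Mean Sox10 went from 670 to 748 CPM and Tyrp1 from 107 to 143 CPM. Dct went from 354 to 271 CPM, Mlana from 116 to 101 CPM, Mitf from 102 to 79.2 CPM and Tyr from 0.825 to 0.281 CPM. Pmel stayed near 8.11 CPM. The summed level was lower with SX-682 than in controls in B16F0 (15766 to 15954 against 18576 to 18661 CPM) and in B16F10 (14945 to 15186 against 24438 to 24467 CPM). The summed levels of the keratinocyte and endothelial lists stayed at or under 5.93 and 2.24 CPM in every library, and the fibroblast list was 52.9 to 60.8 CPM in Melan-A, led by Col1a1, and 8.42 to 16.7 CPM in the B16 lines. Of the 4 leukocyte markers, Ptprc, Cd3e and Itgam were at or near 0 in every group, while Cd68 went from a mean of 16.01 to 44.6 CPM in Melan-A with SX-682. The part of these shifts in the results below was not tested.

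SX-682 raised most of the 10 transporter genes in every line, while Slc38a2 fell in every line and Slc38a1 in the B16 lines. In each line 7 of the 10 genes rose, and these were Slc7a11, Slc7a5, Slc3a2, Slc7a1, Slc1a4, Slc1a5 and Slc6a9 in all 3 lines. Of all genes tested, 23.4% rose in Melan-A, 25.1% in B16F0, 25.5% in B16F10 and 11.3% in all 3 lines, when a gene was called at an edgeR adjusted p under 0.05. The 10 genes were chosen with earlier results of these data known. Shares over all genes are therefore given for scale and are no test of the set. A single gene fell in Melan-A and 2 each in B16F0 and B16F10, against 24.7%, 25% and 25.3% of all genes, and Slc38a2 fell in all 3 lines, as did 11.7% of all genes. Over the 10 genes the median log2 fold change was 0.76, 0.77 and 1.10 in the lines as listed, against 0 over all genes tested in each line. The 10 genes together took between 0.133% and 0.174% of the counts of a control library and between 0.220% and 0.263% of those of an SX-682 library. In bulk RNA, fewer cells with a transcript and less of it per cell cannot be told apart. With 2 libraries per group the smallest p that an exact 2-sided permutation within a line allows is 0.333, and the tests therefore borrow the spread of other genes and groups.

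**Figure D1:**
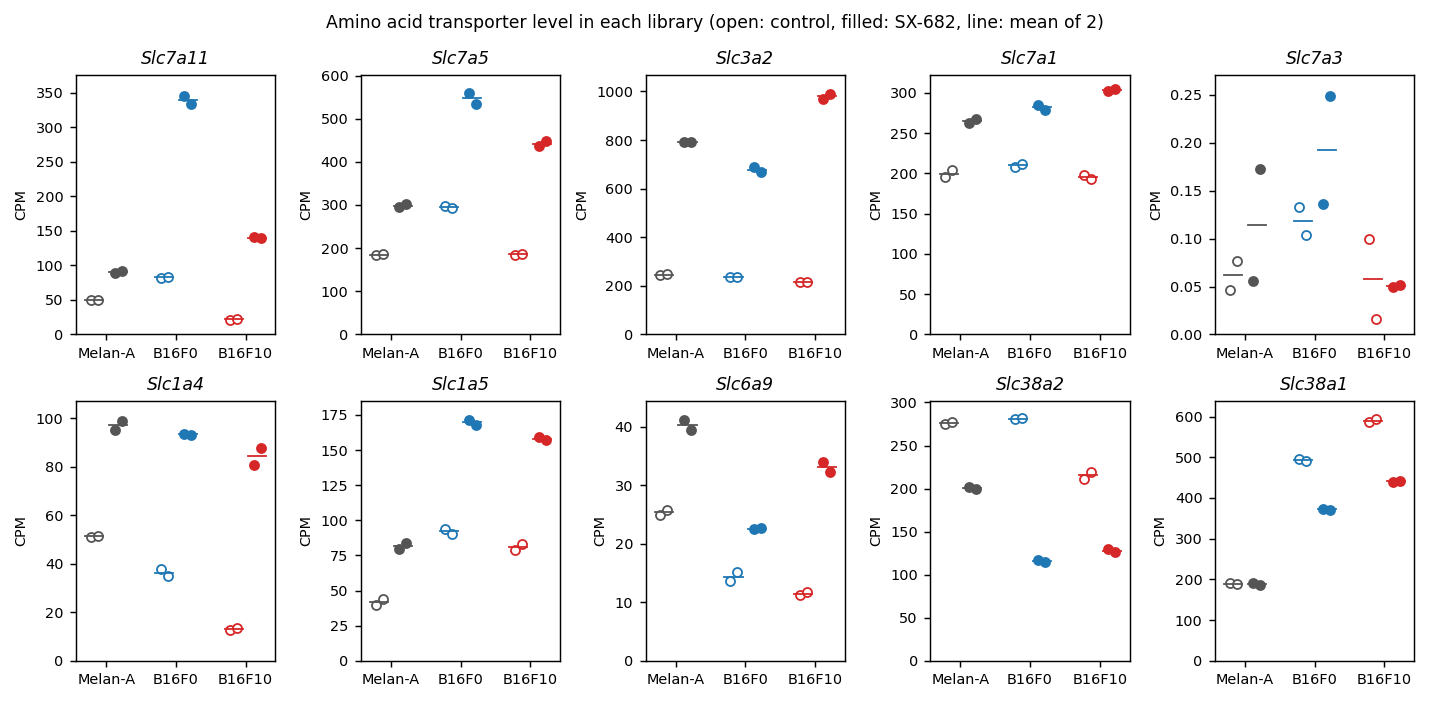
Level of each of the 10 transporter genes in CPM after TMM scaling (y axis from 0, a scale of its own per gene) in the 12 libraries, by line (x axis), with open circles for controls, filled circles for SX-682 and a short line at the mean of the 2 libraries. Slc3a2 in B16F10 goes from 218 and 217 CPM to 971 and 990.0 CPM, and Slc38a2 is lower with SX-682 than in both controls in every line.

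Slc7a11 (chr3:49892526-50443614 on GRCm38, minus strand) rose in every line, and by more in B16F0 and B16F10 than in Melan-A. In Melan-A it was at 50.4 and 50.4 CPM in the controls and at 88.8 and 91.2 CPM with SX-682. In B16F0 the controls were at 81.3 and 83.7 CPM and the SX-682 libraries at 345 and 334 CPM. In B16F10 the controls were lowest of all, at 21.4 and 21.96 CPM, and the SX-682 libraries were at 141 and 139 CPM. Every SX-682 library was thus above both controls of its line. Slc7a11 rose by log2 fold changes of 0.84 in Melan-A (standard error 0.032, edgeR adjusted p = 4.4e-19), 2.04 in B16F0 (standard error 0.030, edgeR adjusted p = 4.1e-29) and 2.69 in B16F10 (standard error 0.036, edgeR adjusted p = 3.0e-30).

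Because ATF4 is known to bind a composite C/EBP-ATF element, the promoters that RefSeq lists for these genes on GRCm38.p6 were searched for TGATGNAA on both strands. RefSeq windows of 300 bases, from 250 before to 50 after a start site, were found for 6 of the 10 genes, Slc7a11, Slc3a2, Slc7a1, Slc1a4, Slc6a9 and Slc38a2, in 9 windows. The motif was found in 3.97% of all 32851 windows. The Slc7a11 window held 2 matches, TGATGCAA from 66 to 59 bases and its reverse form TTGCATCA from 47 to 40 bases before the start site. Its 250 bases before the start site (chr3:50443614-50443863, minus strand) are shown because this gene holds the larger number of matches, which are in capitals.

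Slc7a11: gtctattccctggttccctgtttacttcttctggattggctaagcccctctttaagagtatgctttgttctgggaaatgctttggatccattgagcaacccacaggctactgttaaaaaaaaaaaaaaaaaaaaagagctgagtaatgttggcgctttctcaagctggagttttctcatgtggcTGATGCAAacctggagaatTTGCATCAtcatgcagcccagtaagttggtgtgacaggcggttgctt

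Slc7a5 (chr8:121881150-121907694, minus strand), the LAT1 light chain, rose less than Slc7a11 in B16F0 and B16F10. Its controls were at 183 and 187 CPM in Melan-A, 297 and 293 CPM in B16F0, and 185 and 187 CPM in B16F10. With SX-682 it was at 295 and 302 CPM in Melan-A, 560.3 and 534 CPM in B16F0, and 436 and 447 CPM in B16F10. All SX-682 libraries lay above the controls of their line, and those of B16F0 stood highest. This gave log2 fold changes of 0.69, 0.89 and 1.25 in Melan-A, B16F0 and B16F10, with standard errors of 0.026, 0.025 and 0.026.

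Slc3a2 (chr19:8706882-8723369, minus strand), the shared heavy chain, had control levels close to each other in the 3 lines, 243 and 248 CPM in Melan-A, 235 and 235 CPM in B16F0, and 218 and 217 CPM in B16F10. It reached 792 and 793 CPM in Melan-A, 687 and 669 CPM in B16F0, and 971 and 990.0 CPM in B16F10 with SX-682. The log2 fold changes were 1.69 (standard error 0.022, edgeR adjusted p = 1.2e-29), 1.53 (standard error 0.022, edgeR adjusted p = 2.8e-29) and 2.17 (standard error 0.023, edgeR adjusted p = 8.5e-33). It was the member with the largest rise in Melan-A. The RefSeq window of Slc3a2 (chr19:8713848-8714147, minus strand) held no match to the motif. This window lies inside the gene as given above. The bases around its outer end at 8723369, where a gene on the minus strand begins, were not searched.

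The balance between the light chains Slc7a5 and Slc7a11 and their heavy chain was read from levels divided by exonic length, in CPM per kilobase. Other partners of Slc3a2, Slc7a6, Slc7a7 and Slc7a8 among them, are not in the sum below, so it covers only a part of the light chains. Slc7a7 had means of 3.87 CPM per kilobase in B16F0 controls and 5.88 in B16F0 with SX-682. In Melan-A and B16F10 its means were at most 0.347 CPM per kilobase. Slc7a6 had means of 16.5, 17.7 and 17.1 CPM per kilobase in Melan-A, B16F0 and B16F10 controls. The sum of Slc7a5 and Slc7a11 relative to Slc3a2 was 0.770 and 0.769 in Melan-A controls and 0.383 and 0.392 with SX-682. In B16F0 it was 1.29 and 1.28 in controls and 0.903 and 0.887 with SX-682, and in B16F10 it was 0.833 and 0.845 in controls and 0.464 and 0.466 with SX-682. This ratio of levels was lower in both SX-682 libraries than in both controls of each line, and it was highest in B16F0. Between these 2 light chains, Slc7a11 relative to Slc7a5 was 0.0732 and 0.0718 in Melan-A controls and 0.0802 and 0.0805 with SX-682. In B16F0 the same ratio was 0.0729 and 0.0760 in controls and 0.164 and 0.167 with SX-682, and in B16F10 it was 0.0308 and 0.0313 in controls and 0.0862 and 0.0827 with SX-682. These ratios are descriptions and were not tested.

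**Figure D2:**
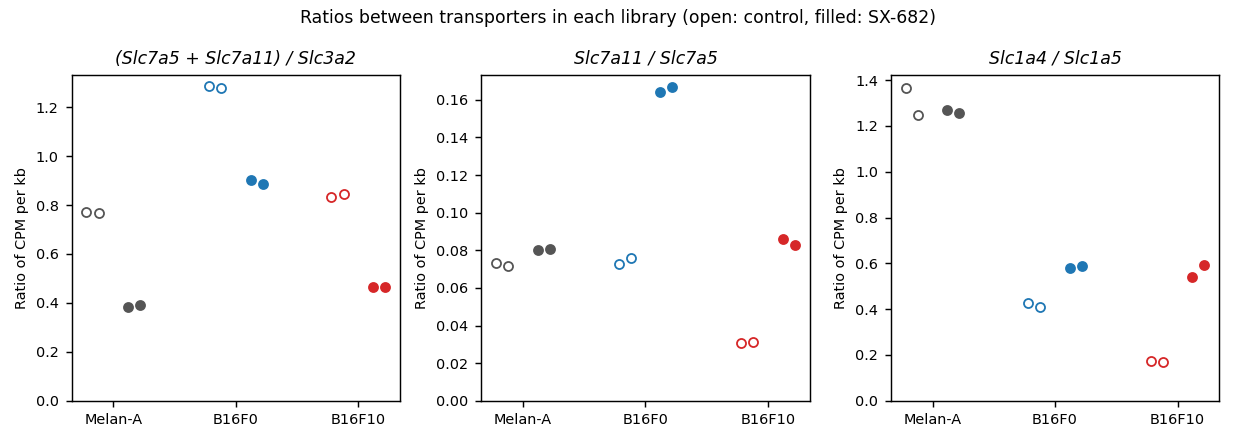
Ratio of levels in CPM per kilobase of exon (y axis, from 0) in each of the 12 libraries, by line (x axis), with open circles for controls and filled circles for SX-682; the panels show the light chains Slc7a5 and Slc7a11 over the heavy chain Slc3a2, Slc7a11 over Slc7a5, and Slc1a4 over Slc1a5. In the first panel the filled circles lie below the open ones in every line, as in Melan-A at 0.383 and 0.392 against 0.770 and 0.769.

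Of the cationic amino acid carriers, Slc7a1 (chr5:148327410-148399904, minus strand) showed the smallest rise among the 7 genes raised in all 3 lines. It went from 195 and 204 CPM to 263 and 267 CPM in Melan-A, from 208 and 211 CPM to 285 and 279 CPM in B16F0, and from 198 and 193 CPM to 303 and 305 CPM in B16F10. The controls of the lines were close to each other, and each SX-682 library was above them all. Its log2 fold changes were 0.41, 0.42 and 0.63 with standard errors of 0.026, 0.026 and 0.027. Slc7a3 (chrX:101079210-101086020, minus strand) was barely detected, with between 1 and 13 counts in a library. Its counts in controls and with SX-682 were 4 and 7 against 4 and 13 in Melan-A, 10 and 7 against 9 and 12 in B16F0, and 6 and 1 against 3 and 3 in B16F10. Its log2 differences were 0.88 (95% interval -0.84 to 2.60), 0.66 (95% interval -0.94 to 2.25) and -0.16 (95% interval -2.33 to 2.004), so a change was not detectable at this depth.

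Slc1a4 (chr11:20302180-20332713, minus strand), a carrier of alanine, serine and cysteine, had unequal control levels and similar levels with SX-682. The controls were at 51.2 and 51.3 CPM in Melan-A, 37.9 and 34.9 CPM in B16F0, and 12.8 and 13.4 CPM in B16F10. With SX-682 the values were 95.4 and 98.8 CPM, 93.7 and 93.2 CPM, and 80.7 and 87.9 CPM in the same order of lines. The log2 fold changes were 0.92 (standard error 0.041, edgeR adjusted p = 1.8e-17), 1.36 (standard error 0.044, edgeR adjusted p = 6.3e-21) and 2.68 (standard error 0.052, edgeR adjusted p = 1.4e-26). A change and a control level share the control libraries, so the order of one is not independent of the order of the other. Besides Slc7a11, Slc1a4 was the only one of the 6 genes with a window that held TGATGNAA, as TTGCATCA across the start site. Its 250 bases before the start site (chr11:20332714-20332963, minus strand) end in the first 4 bases of this match, in capitals.

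Slc1a4: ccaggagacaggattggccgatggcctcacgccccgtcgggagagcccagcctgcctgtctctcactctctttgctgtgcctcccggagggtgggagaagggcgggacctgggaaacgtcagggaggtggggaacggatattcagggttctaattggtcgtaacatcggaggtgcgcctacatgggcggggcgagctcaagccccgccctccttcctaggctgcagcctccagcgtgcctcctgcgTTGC

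Slc1a5 (chr7:16781340-16798274, plus strand), the glutamine carrier ASCT2, rose by nearly the same amount in the 3 lines. It went from 39.9 and 43.8 CPM to 79.9 and 83.5 CPM in Melan-A, from 94.1 and 90.4 CPM to 171 and 168 CPM in B16F0, and from 78.9 and 83.3 CPM to 159 and 157 CPM in B16F10. Its log2 fold changes were 0.96, 0.88 and 0.96 with standard errors of 0.039, 0.037 and 0.038. Per kilobase, the level of Slc1a4 relative to Slc1a5 was 1.36 and 1.25 in Melan-A controls and 1.27 and 1.26 with SX-682. In B16F0 this ratio was 0.428 and 0.410 in controls and 0.581 and 0.589 with SX-682, and in B16F10 it was 0.173 and 0.171 in controls and 0.540 and 0.595 with SX-682.

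Slc6a9 (chr4:117834506-117875198, plus strand), the glycine transporter GlyT1, was at 24.9 and 25.8 CPM in Melan-A controls and 41.3 and 39.4 CPM with SX-682. It was at 13.7 and 15.1 CPM in B16F0 controls and 22.6 and 22.6 CPM with SX-682, and at 11.3 and 11.7 CPM in B16F10 controls and 34.0 and 32.3 CPM with SX-682. The SX-682 libraries of each line lay above its controls. The log2 fold changes were 0.67, 0.65 and 1.53 with standard errors of 0.055, 0.063 and 0.063. In the GENCODE M21 annotation Slc6a9 shares 27.8% of its exonic bases with Ccdc24, 9.94% with Gm17114 and 0.895% with B4galt2, all on the opposite strand, and whether the counting used strand is not given in the sources used here. Ccdc24 itself had mean levels from 0 to 0.237 CPM over the 6 groups. No other member shares exonic bases with another gene.

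Of the members, Slc38a2 and Slc38a1 showed falls. Slc38a2 (chr15:96687392-96699730, minus strand), known as SNAT2, fell from 275 and 277 CPM to 201 and 199 CPM in Melan-A and from 281 and 282 CPM to 117 and 114 CPM in B16F0. In B16F10 it fell from 212 and 219 CPM to 129.5 and 127 CPM. No SX-682 library reached a control of its line, and the lowest values were those of B16F0. The log2 fold changes were -0.46 (standard error 0.026, edgeR adjusted p = 2.8e-15), -1.28 (standard error 0.027, edgeR adjusted p = 2.5e-25) and -0.75 (standard error 0.027, edgeR adjusted p = 6.2e-20). Slc38a1 (chr15:96571418-96642913, minus strand), known as SNAT1, fell from 496 and 491 CPM to 373 and 369.8 CPM in B16F0 and from 586 and 594 CPM to 439 and 443 CPM in B16F10. Its log2 fold changes there were -0.41 and -0.42, with standard errors of 0.022 and 0.022. In Melan-A it was at 190.1 and 189 CPM in controls and 190.0 and 186 CPM with SX-682, and the groups overlapped. The log2 difference in Melan-A was -0.012 with a 95% interval from -0.059 to 0.036 (edgeR adjusted p = 0.718).

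Other motifs were searched in the same windows. TGACNNNGC, a core of the antioxidant response element that NRF2 binds, was found in 12.4% of all windows on either strand. It was found once each in the windows of Slc7a1 and Slc38a2 and in 2 windows of Slc6a9, so it occurred with genes that rose and with 1 that fell. CACGTG, the E-box, was found in 7.15% of all windows and in none of the 9 windows of these genes. The 250 bases before the start site of Slc38a2 (chr15:96699729-96699978, minus strand) are shown as those of the gene that fell in every line, with the match TGACGCGGC in capitals. They held no TGATGNAA. Bases of Slc38a2 outside its window, such as those of its introns, were not searched, so a match there would have been missed.

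Slc38a2: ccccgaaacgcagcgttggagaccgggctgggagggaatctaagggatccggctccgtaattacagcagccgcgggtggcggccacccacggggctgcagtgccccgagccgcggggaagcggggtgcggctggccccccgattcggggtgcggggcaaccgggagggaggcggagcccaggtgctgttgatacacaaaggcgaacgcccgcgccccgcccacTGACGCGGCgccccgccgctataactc

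**Figure D3:**
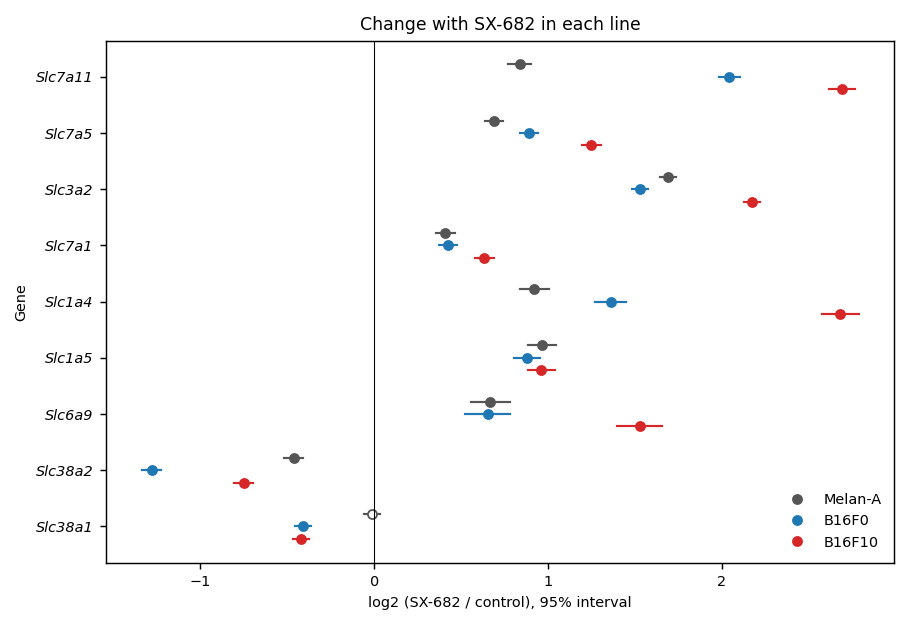
Log2 ratio of SX-682 to control (x axis) for 9 of the 10 genes (y axis) in Melan-A (grey), B16F0 (blue) and B16F10 (red), with bars for the 95% interval, filled points for an adjusted p under 0.05 and an open point otherwise; Slc7a3 is left out for its low counts. Of the genes, 7 lie to the right of 0 in every line, Slc38a2 lies to the left in every line, and the open point is Slc38a1 in Melan-A at -0.012.

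The size of the change differed among the lines for 8 of the 10 genes, against 47.4% of all genes tested (edgeR's F-test over the 3 lines). The exceptions were Slc1a5, whose 3 log2 fold changes spanned 0.085 (edgeR adjusted p = 0.313), and Slc7a3. For Slc1a5 the change in B16F10 minus that in Melan-A was -0.0031, with a 95% interval from -0.11 to 0.11. Without Melan-A control replicate 2, the 3 changes of Slc1a5 spanned 0.16 and passed the test (edgeR adjusted p = 0.0432).

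For most of the genes that rose, the change was larger in B16F10. The change in B16F10 exceeded that in B16F0 on the signed log2 scale for 7 genes, Slc7a11, Slc7a5, Slc3a2, Slc7a1, Slc1a4, Slc6a9 and Slc38a2, and was below it for 0 of the 10, against 15.3% and 14.9% of all genes in these directions. Among them the difference was 1.32 for Slc1a4 (standard error 0.069, edgeR adjusted p = 5.8e-15), 0.87 for Slc6a9 (standard error 0.090, edgeR adjusted p = 7.3e-09) and 0.65 for Slc7a11 (standard error 0.048, edgeR adjusted p = 1.0e-11). For Slc38a2 the difference of 0.53 stands for a smaller fall in B16F10. By an unadjusted p under 0.05, and with DESeq2, the number below also stayed at 0. A larger change was not always a higher level with SX-682. The SX-682 means in B16F10 and B16F0 were 140 and 340 CPM for Slc7a11, 442 and 547 CPM for Slc7a5, and 84.3 and 93.5 CPM for Slc1a4. For Slc3a2, Slc7a1, Slc6a9 and Slc38a2 the B16F10 mean was the higher one. Each change shares its control libraries with the control level, as said for Slc1a4.

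Against Melan-A, the change in B16F10 was higher for 6 genes and lower for 2, the latter being Slc38a2 and Slc38a1, while 17.8% and 16% of all genes passed in these directions. The differences were 1.85 for Slc7a11 and 1.76 for Slc1a4, the carriers of cystine and of small neutral amino acids. In B16F0 the change was higher than in Melan-A for 3 genes and lower for 3, against 17.7% and 16.6% of all genes. Slc7a11 (1.21), Slc1a4 (0.44) and Slc7a5 (0.20) were the former, and Slc38a2 (-0.82), Slc38a1 (-0.40) and Slc3a2 (-0.16) the latter. Slc3a2 was the gene whose change was smaller in B16F0 than in Melan-A and larger in B16F10 than in Melan-A. These comparisons share libraries between them, so they are not independent of each other.

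The untreated levels of the transporters also differed between the lines. Of the 10 genes, 8 differed between B16F0 and Melan-A controls (5 higher and 3 lower in B16F0), 7 between B16F10 and Melan-A (2 higher and 5 lower), and 9 between B16F10 and B16F0 (1 higher and 8 lower in B16F10). Of all genes tested 75.9% (35.3% higher and 40.6% lower), 74.2% (33.4% and 40.8%) and 62% (30.8% and 31.2%) differed in these comparisons, so the shares over the 10 genes are near those over all genes in the first and second. Over all genes the median log2 ratio was -0.060 for B16F0 and -0.10 for B16F10 against Melan-A, and -0.0017 between the B16 lines. A line and its culture history cannot be told apart here.

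Slc38a1, Slc1a5 and Slc7a11 set the lines apart in different ways. Slc38a1 was lowest in Melan-A, with log2 ratios of 1.38 in B16F0 and 1.64 in B16F10 relative to it. Slc1a5 was lower in Melan-A too, with ratios of 1.14 and 0.95. Slc7a11 was higher in B16F0 (0.71) and lower in B16F10 (-1.22) than in Melan-A, and differed by -1.93 between the B16 lines. Slc1a4 and Slc6a9 were highest in Melan-A, at -0.49 and -1.96 for Slc1a4 and -0.82 and -1.14 for Slc6a9 in B16F0 and B16F10. Slc7a5 was higher in B16F0 than in Melan-A by 0.67, while the B16F10 ratio was 0.0059 (95% interval -0.048 to 0.060). This last ratio was below 0 with RLE scaling, with DESeq2 and with at least 10 counts required in every library, and passed only in the last case, at -0.059 (edgeR adjusted p = 0.0403).

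The remaining carriers differed little among untreated lines. Slc38a2 was lower in B16F10 than in Melan-A by a log2 ratio of -0.36, with no difference called in B16F0 (0.026, 95% interval -0.026 to 0.079). Slc3a2 was lower in B16F10 than in Melan-A by a ratio of -0.18. Its ratio in B16F0 was -0.063 and no longer passed without Melan-A control replicate 2 (-0.047) or without B16F0 control replicate 2 (-0.055). Slc7a1 was at 0.073 in B16F0 relative to Melan-A, a call lost without Melan-A control replicate 1 (0.038), without B16F0 control replicate 2 (0.069), with RLE scaling (0.040), with DESeq2 (0.039) and with at least 10 counts per library (0.031). Between the B16 lines Slc7a1 was at -0.100, a call lost without B16F10 control replicate 2 (-0.070).

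**Figure D4:**
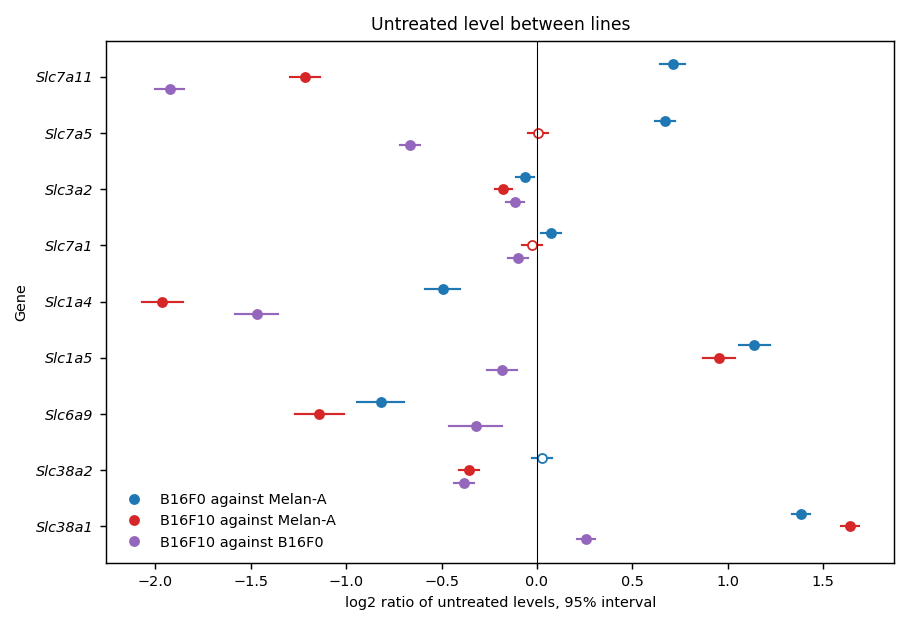
Log2 ratio of untreated levels between lines (x axis) for 9 of the 10 genes (y axis), with B16F0 against Melan-A in blue, B16F10 against Melan-A in red and B16F10 against B16F0 in purple; bars give the 95% interval and open points miss an adjusted p of 0.05. Slc38a1 lies at 1.38 and 1.64 against Melan-A, and Slc1a4 at -1.96 in B16F10.

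Ranked by level per kilobase of exon, Slc3a2 and Slc7a5 were the highest of the 10 genes in all 6 groups. Slc3a2 led in 5 groups, from 61.6 CPM per kilobase in B16F10 controls to 278 CPM per kilobase in B16F10 with SX-682, and Slc7a5 led in B16F0 controls, at 79.6 against 66.6. The third place in controls was held by Slc38a2 in Melan-A (31.2) and B16F0 (31.8) and by Slc38a1 in B16F10 (34.2). With SX-682 the third was Slc1a4 in Melan-A (24.7) and Slc1a5 in B16F0 (40.7) and B16F10 (37.9). Slc7a11 went from rank 8 (5.92) to rank 5 (24.4) in B16F0. Neighbours in these orders did not overlap between their libraries, except Slc7a1 and Slc7a11 in B16F0 with SX-682 at 24.4 and 24.4. The length is that of all annotated exons merged, which can exceed the length of the RNA present. This error between genes, here and in the ratios above, is not seen in the spread between libraries. Slc7a3 was last in each group.

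Other amino acid transporters did not move in 1 direction. From a list of 46 names, 43 were in the table and 30 were tested, and none of the other 13 exceeded 15 counts in any library. In Melan-A 10 rose and 4 fell, in B16F0 7 rose and 10 fell, and in B16F10 4 rose and 8 fell, with median log2 changes of 0.25, 0.16 and -0.015. Over all genes tested, 23.4% rose and 24.7% fell in Melan-A, 25.1% and 25% in B16F0, and 25.5% and 25.3% in B16F10, so that, for example, the 7 of 30 that rose in B16F0 are a share near that of all genes. Without SX-682 replicate 1 of Melan-A the number that rose there was 6, and without SX-682 replicate 1 of B16F0 it was 4 there. With at least 10 counts required in every library, 2 rose in B16F10. That setting takes Slc1a3, Slc6a15 and other transporters of low count out of the test, so the 2 come from fewer than 30. Some of these calls rest on few counts. Among the rises, Slc6a19 in B16F0 went from 0 and 0 to 2 and 4 counts, and Slc1a3 in B16F10 from 0 and 1 to 5 and 3. Among the falls, Slc7a9 in B16F0 went from 12 and 16 to 2 and 3 counts.

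Of these 30 transporters, 3 rose in all lines and 4 fell in all lines, shares near the 11.3% and 11.7% of all genes, and they are described here only by their values. Slc43a2, another carrier of large neutral amino acids, went from 17.3 and 18.9 CPM to 35.9 and 35.0 CPM in Melan-A, from 26.0 and 23.3 CPM to 31.1 and 28.5 CPM in B16F0, and from 17.8 and 18.4 CPM to 40.4 and 38.5 CPM in B16F10. Slc38a7, a glutamine exporter of the lysosome, had log2 fold changes of 0.71, 0.67 and 0.47 with standard errors of 0.039, 0.037 and 0.036, and thus rose although it belongs to the Slc38 family. The last of the 3 was Slc6a15, a neutral amino acid carrier known from neurons, which held 0 and 5 counts in Melan-A controls and 6 and 17 with SX-682, and 6 and 1 counts in B16F10 controls and 14 and 9 with SX-682. In B16F0 it was at 16.002 and 16.9 CPM in controls and 23.4 and 21.3 CPM with SX-682. Its call was lost in Melan-A without control replicate 1 (edgeR adjusted p = 0.0995) or SX-682 replicate 2 (0.232). It was lost in B16F0 without SX-682 replicate 1 (edgeR adjusted p = 0.0740), and in B16F10 without control replicate 2 (0.335) or SX-682 replicate 1 (0.210).

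The 4 that fell in all lines were Slc36a1, Slc6a6, Slc7a6 and Slc38a10. Slc36a1, a proton-coupled carrier of the lysosome and plasma membrane, had log2 fold changes of -0.27, -0.70 and -1.12 in Melan-A, B16F0 and B16F10, with standard errors of 0.055, 0.062 and 0.067. Slc6a6, the taurine transporter, fell from 1096 and 1108 CPM to 647 and 658 CPM in B16F10, from 829 and 829.9 CPM to 492 and 464 CPM in B16F0, and from 589 and 587 CPM to 482 and 483 CPM in Melan-A. Slc7a6, a light chain that also binds Slc3a2, changed by -0.29, -0.092 and -0.81, and its call in B16F0 (edgeR adjusted p = 0.0414) was lost with RLE scaling, DESeq2, a minimum of 10 counts per library, a separate fit for the line, and without any 1 of 7 libraries. These are SX-682 replicate 1 or 2 of Melan-A, control replicate 1 or SX-682 replicate 1 or 2 of B16F0, and control replicate 1 or 2 of B16F10, with values from -0.099 to -0.052. Slc38a10 changed by -0.28, -0.14 and -0.34, with standard errors of 0.024, 0.024 and 0.024.

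Several carriers were found mainly in Melan-A or mainly in the B16 lines, and those given here were picked after their values were seen. Slc1a3 held 364 and 417 counts in Melan-A controls, against 2 and 0 in B16F0 and 0 and 1 in B16F10 controls. Slc38a4 held 284 and 261 counts in Melan-A controls and 0 in each B16 control. Slc7a2, a cationic amino acid carrier, was at 46.6 and 44.6 CPM in Melan-A controls, and held 2 and 1 counts in B16F0 controls and 0 and 0 in B16F10 controls. Against the floor of 3 counts per library it was at least 1078-fold lower in B16F0 and at least 945-fold lower in B16F10. Slc7a8, which carries neutral amino acids with the Slc3a2 heavy chain, held 1 and 6 counts in Melan-A controls and stood at 4.68 and 5.49 CPM in B16F0 controls and 6.33 and 6.38 CPM in B16F10 controls.

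**Figure D5:**
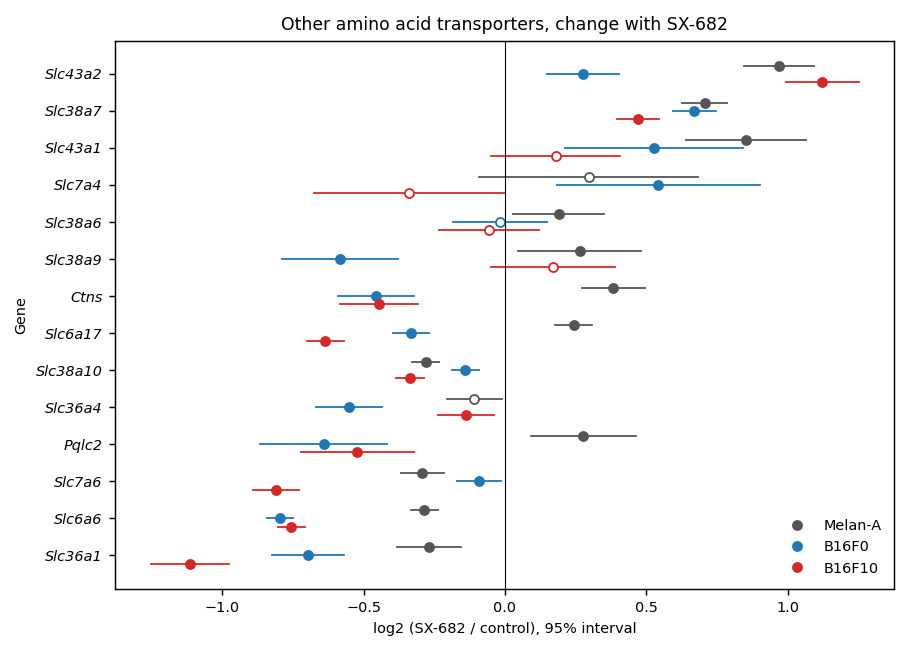
Log2 ratio of SX-682 to control (x axis) for the 14 other amino acid transporters with a mean of at least 1 CPM in every group (y axis), in Melan-A (grey), B16F0 (blue) and B16F10 (red), with bars for the 95% interval and open points where the adjusted p was not under 0.05. Slc43a2 and Slc38a7 have filled points to the right of 0 in every line, and Slc36a1, Slc6a6, Slc7a6 and Slc38a10 to the left. Slc43a1 also lies to the right and Slc36a4 to the left in every line, but with an open point in B16F10 and in Melan-A, respectively.

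A list of 12 genes, chosen with earlier results of these data known, was read beside the transporters. It holds genes known to act on transporter genes or in the amino acid response, targets of ATF4 included. They are called regulators for short. In Melan-A 10 rose and 0 fell, and in B16F0 and B16F10 7 rose and 4 fell. The shares over all genes tested, raised and lowered, were 23.4% and 24.7% in Melan-A, 25.1% and 25% in B16F0, and 25.5% and 25.3% in B16F10, and the 4 of 12 that fell are not far from them. The 2 that did not pass in Melan-A were Eif2ak4 (0.022) and Keap1 (-0.083), with 0 falls at an unadjusted p under 0.05 or with DESeq2 either. The 7 that rose in all lines, as did 11.3% of all genes, were Atf4, Ddit3, Trib3, Cebpb, Nfe2l2, Sesn2 and Chac1. Atf4 went from 371 and 388 CPM to 635 and 626 CPM in Melan-A, from 223 and 230.1 CPM to 461 and 459 CPM in B16F0, and from 225 and 225 CPM to 612 and 614 CPM in B16F10. Its log2 fold changes of 0.73, 1.02 and 1.45 had standard errors of 0.024, 0.024 and 0.025.

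Trib3 and Chac1, which encode a pseudokinase and a glutathione-degrading enzyme and are known targets of ATF4, and Ddit3, which encodes the stress factor CHOP, had the larger changes. Trib3 changed by 1.56, 2.62 and 4.95 in Melan-A, B16F0 and B16F10, Chac1 by 1.55, 1.78 and 4.11, and Ddit3 by 2.14, 2.05 and 3.50. Nfe2l2, the gene for NRF2, ran in the opposite order of lines to Atf4, with log2 fold changes of 0.59, 0.36 and 0.13 and standard errors of 0.028, 0.028 and 0.028. Cebpb, a partner of ATF4, changed by 0.69, 1.26 and 0.76, and Sesn2, a sensor of leucine, by 0.59, 0.29 and 0.97. Of the 2 kinases on the list that phosphorylate eIF2alpha, Eif2ak4 (GCN2) changed by 0.022, -0.16 and -0.14 and Eif2ak3 (PERK) by 0.39, -0.58 and -0.18. Eif2ak4 in B16F0 did not pass without control replicate 2 (-0.13), nor in B16F10 without control replicate 2 (-0.14) or SX-682 replicate 1 (-0.13). Myc changed by 0.59, -0.11 and -0.48, and its call in B16F0 was lost with RLE scaling (-0.090), without control replicate 1 (-0.093) and without SX-682 replicate 1 (-0.051). Nedd4l, a ubiquitin ligase known to act on membrane carriers, changed by 0.21, -0.29 and -0.45. The change differed among the lines for 11 of the 12 genes, all but Keap1, against 47.4% of all genes tested.

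The genes whose pattern over the 12 libraries was nearest to those of the cystine and leucine carriers were found among 10948 genes, by the root mean square difference of log2 CPM after centring. Nearest to Slc7a5 were Sars (0.083) and Aars (0.12), which encode seryl and alanyl tRNA synthetases, and the non-coding Snhg6 (0.13). For Slc7a11 they were Zc3h6 (0.30), Chd5 (0.40) and Snhg16 (0.41). The measure is not scaled to the spread of a gene, so its size is not comparable between members. Group means of Slc7a11 ran from 21.7 to 340 CPM, and those of Slc7a5 from 185 to 547 CPM. For Slc3a2 they were Gm10130 (0.20), Zfp712 (0.23) and 1810026B05Rik (0.28). The log2 fold changes of Sars were 0.80, 0.82 and 1.03 in Melan-A, B16F0 and B16F10.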

How the data were processed

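Total RNA of Melan-A, B16F0 and B16F10 cultures was sequenced by the authors, 2 libraries in each of 6 groups. The authors deposited counts of reads per gene, not normalized, with coordinates on mm10 (GRCm38) and a merged exonic length per gene. The submitters' processing notes name cutadapt, STAR and DESeq2, without versions. The counting program and its use of strand are not given in the sources used here.

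Counts of all 12 libraries were fitted together in R 4.3.3 with edgeR 4.0.16: TMM scaling, edgeR's expression filter (18338 genes), a quasi-likelihood F-test and Benjamini-Hochberg adjustment over all tested genes at 0.05. Standard errors come from the F statistic, with 6 residual and 21.9 prior degrees of freedom. The prior count was 0.125, and a pseudocount of 0.1 CPM was used for likeness. Depth was 48876982 to 85322092 counts per library. The replicates of each group differed by more than sampling noise (chi-square per gene 2.86 to 5.29). Same-numbered libraries did not deviate together (r from -0.016 to 0.019), so no block was used. The fit was tested on simulated data.

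The members and lists were chosen with earlier results of these data known. All members are named. Of the other transporters, those called in all 3 lines in 1 direction (up to 4 each way) are named, of the regulators those called in all 3 lines, and for Slc7a11, Slc7a5 and Slc3a2 the 3 nearest genes with a mean log2 CPM of at least 1. Further genes were named after their values were seen. Alternatives were RLE scaling, DESeq2 1.42.0, a replicate block, tests on unfiltered genes or on those with 10 or more counts per library, a separate fit per line, an absolute log2 difference of at least 0.5, and each library left out. Promoters are from RefSeq on GRCm38.p6.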

Additional observations from a re-analysis of the deposited data

Results flagged for a closer look

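A difference of the SX-682 response between lines was found, by edgeR's F-test over the 3 lines at an adjusted p under 0.05, in 26 of the 29 genes with a stated response in this text, counting the transporters of the rule, the other transporters called in all lines and the regulators. The same test passed for 47.4% of all genes tested, and the 7 other transporters were named because they were called in every line, so the count is no result about these genes. The values below give, on the log2 scale, the largest minus the smallest of the 3 changes. Among the 10 transporters the span was 1.85 for Slc7a11, 0.56 for Slc7a5, 0.65 for Slc3a2, 0.22 for Slc7a1, 1.76 for Slc1a4, 0.87 for Slc6a9, 0.82 for Slc38a2 and 0.41 for Slc38a1. For the other transporters called in every line it was 1.96 for Slc6a15, 0.85 for Slc43a2, 0.24 for Slc38a7, 0.85 for Slc36a1, 0.51 for Slc6a6, 0.72 for Slc7a6 and 0.20 for Slc38a10, of which Slc6a15 rests on few counts in Melan-A and B16F10. For the regulators it was 0.72 for Atf4, 0.18 for Eif2ak4, 0.98 for Eif2ak3, 1.45 for Ddit3, 3.39 for Trib3, 0.57 for Cebpb, 0.46 for Nfe2l2, 1.07 for Myc, 0.68 for Sesn2, 2.56 for Chac1 and 0.66 for Nedd4l.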

How the results depend on the processing

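The 7 rises in each line and in all 3 lines held under each alternative that was run, except that Slc7a1 in Melan-A and B16F0 lies under the size limit of 0.5, which left 6 rises there and in all 3 lines. Shares of all genes at that limit are not given here. Of the counts over lists, 487 stayed within 1.5 times their main value and 18 did not.

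The same-numbered control and SX-682 libraries share only a number. With the replicate block, the call of Slc3a2 between untreated B16F0 and Melan-A was lost (-0.045, edgeR adjusted p = 0.144), and the untreated ratios of B16F10 to Melan-A that passed no test turned to 0.0030 for Slc7a1 and 0.97 for Slc7a3.

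Requiring an absolute log2 difference of at least 0.5 left 0, 1 and 1 of the 10 genes lowered in Melan-A, B16F0 and B16F10 and 0 in all 3 lines, since smaller falls are left out by construction. It left 4 other transporters raised and 0 lowered in Melan-A, 6 lowered in B16F0 and 5 lowered in B16F10, and 1 and 0 regulators lowered in B16F0 and B16F10. Of the differences in change, 2 remained for B16F0 and 4 for B16F10 against Melan-A, and of the untreated differences 5 between B16F0 and Melan-A and 3 between the B16 lines. Without a share of all genes at this limit, these numbers show only how the calls depend on it. With at least 10 counts in every library, and with a separate fit per line, 2 other transporters rose in B16F10. The first of these settings also takes transporters of low count out of the test.

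Values near 0 changed sign, and for these the cause was not tested. The median over all genes moved under these settings too. For untreated B16F10 against Melan-A it went from -0.10 to -0.13 with RLE, and for B16F0 from -0.060 to -0.093. Over the genes with at least 10 counts in every library, it went from 0.050 to -0.015 and from 0.041 to -0.00035 in the same order. Slc7a5 in untreated B16F10 against Melan-A was -0.024 with RLE, -0.025 with DESeq2 and -0.059 with at least 10 counts. Slc38a2 in untreated B16F0 against Melan-A was -0.0069, -0.0073 and -0.015 under the same settings. Slc7a1 in untreated B16F10 against Melan-A kept its sign with DESeq2 (-0.058) and with at least 10 counts (-0.092), and passed with both.

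With each library left out, the other transporters that rose numbered 6 to 10 in Melan-A and 4 to 6 in B16F0, and the lone library of a group was assumed to vary like the others. Untreated B16F10 against Melan-A ranged from -0.0016 to 0.026 for Slc7a5, -0.054 to 0.014 for Slc7a1 and -1.86 to 0.68 for Slc7a3. The change with SX-682 ranged from -0.13 to 1.47 in Melan-A and -0.96 to 1.58 in B16F10 for Slc7a3, from -0.016 to 0.012 in Melan-A for Slc38a1, and from -0.059 to 0.088 in B16F0 and -0.084 to 0.0061 in B16F10 for Keap1. The difference in change between B16F0 and Melan-A ranged from -0.023 to 0.041 for Slc7a1, -0.80 to 0.79 for Slc7a3 and -0.096 to 0.050 for Slc6a9. That between B16F10 and Melan-A ranged from -1.85 to 0.69 for Slc7a3 and -0.079 to 0.050 for Slc1a5, and that between the B16 lines from -1.62 to 0.92 for Slc7a3. Slc7a3, at 1 to 13 counts, is limited by depth.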
